A study of Mus musculus with 4 samples.

Results

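The Prl2c genes, which encode the mouse proliferins, were read by 5 probes of an Agilent whole mouse genome array, of 41174 probes in all. All probes whose gene name in the scanner files starts with Prl2c were taken. They named 2 genes, Prl2c3 (3 probes) and Prl2c5 (2 probes), of 4 family members looked for and of 28146 gene names on the array. No probe was named for Prl2c2 or Prl2c4. In the gene table from RefSeq (GRCm38.p6), Prl2c4 is listed as a synonym of Prl2c3, and 4 of the 5 probes list a transcript of Prl2c2 in the annotation of the array. The family was selected on its large increase in the value table that the authors deposited, where 3 of its probes were number 2, 3 and 4 by increase among the 21173 probes that stood well above background on each scanner array. The contrast between the cell lines is therefore given for these genes as a description, with no test.

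Both cell lines were single clones of EPH-4, a non-malignant mouse mammary epithelial line, grown in serum-free medium with puromycin and without glucocorticoid, and both carried the puromycin selection plasmid pBABE-puro. EV-50 held the empty H1-2 vector and had normal glucocorticoid receptor (GR) status. shGR-19 held an shRNA vector against GR and was labelled as depleted of it. Each line was hybridized in duplicate, which gave 4 arrays. RNA was amplified in duplicate per sample and nothing states that the duplicates came from separate cultures, so the p-values below measure the spread between arrays only.

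Proliferins are secreted hormones of the prolactin family. Trophoblast giant cells of the placenta release them, where they act on blood vessel growth, and growing mouse fibroblast lines also make them. They bind the mannose 6-phosphate receptor, which is the product of Igf2r, whereas pituitary prolactin acts through Prlr. An element upstream of a proliferin gene is a classic composite element, at which GR and the AP-1 factors (dimers of Fos and Jun proteins) act on the same DNA.

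The sequences of the 5 probes are shown because they set which proliferin RNA each value can stand for. They are 60 bases long and run 5′ to 3′. In A_52_P84814 and A_52_P619248, capitals mark the bases that have no identical partner in the other of these 2 probes.
Prl2c3, A_52_P84814: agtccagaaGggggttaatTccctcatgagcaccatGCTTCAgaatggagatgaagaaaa
Prl2c5, A_52_P619248: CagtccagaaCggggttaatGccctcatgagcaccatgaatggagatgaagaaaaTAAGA
Prl2c3, A_51_P312779: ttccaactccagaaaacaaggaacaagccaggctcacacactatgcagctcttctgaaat
Prl2c3, A_51_P312780: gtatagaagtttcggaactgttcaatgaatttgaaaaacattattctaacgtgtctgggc
Prl2c5, A_52_P511450: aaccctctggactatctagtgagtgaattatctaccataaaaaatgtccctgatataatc
The first of these probes was placed for Prl2c3 and the second for Prl2c5, yet their sequences were nearly the same. They shared 52 bases, with 2 mismatches and 6 bases in a gap. In none of the 9 other pairs of probes did the best local match, on either strand, reach more than 13 identical bases.

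In mm9, the build of the probe annotation in the files, the Prl2c3 probes lie on the minus strand of chromosome 13. A_52_P84814 lies from 12883352 to 12884285, A_51_P312779 from 12884423 to 12885595 and A_51_P312780 from 12885635 to 12889129. The Prl2c5 probes lie on the plus strand of the same chromosome, A_52_P511450 from 13282901 to 13282960 and A_52_P619248 from 13282998 to 13283933. Of these, 4 span 934, 1173, 3495 and 936 bases for 60 bases of probe, so that they cross from exon to exon. A_52_P511450 covers 60 bases without a break. All of them lie within 0.401 Mb.

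The annotation ties single probes to several family members. A_52_P84814 and A_51_P312780 each list transcripts of Prl2c2 and Prl2c3. A_51_P312779 lists Prl2c1 beside these, and A_52_P511450 lists Prl2c2, Prl2c3 and Prl2c5. A_52_P619248 lists Prl2c5 and Prl2c1 only. The values below thus belong to proliferin RNA as each probe binds it, and how far a probe binds the RNA of each gene was not tested.

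**Figure D1:**
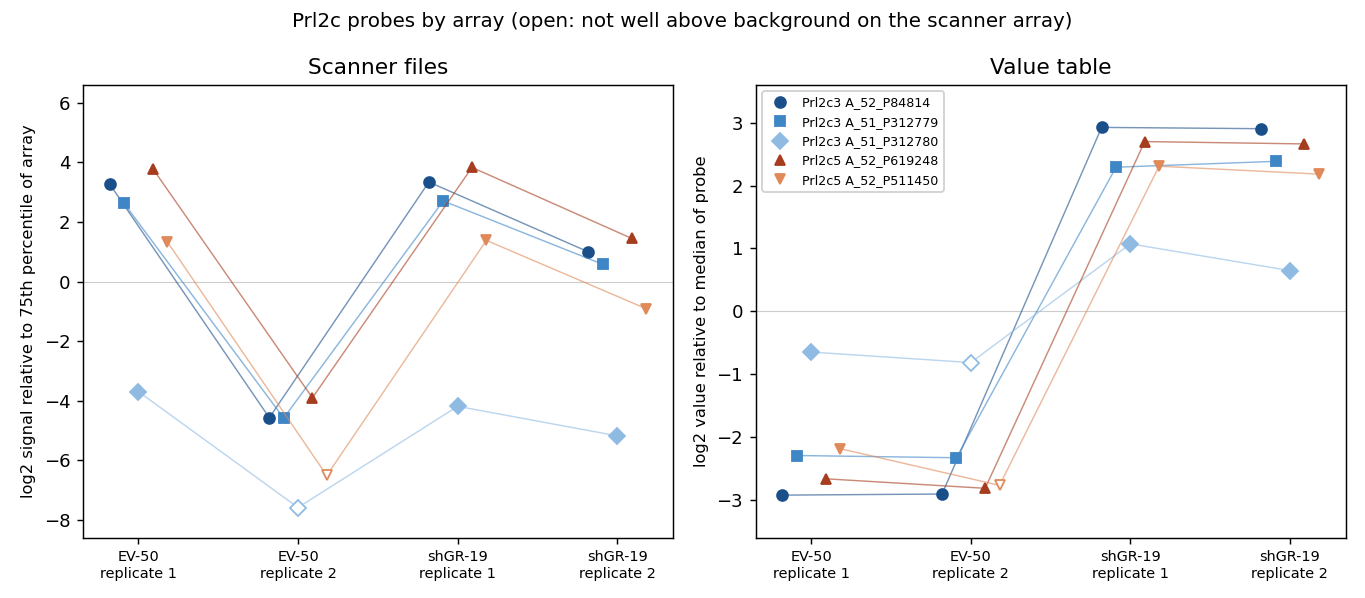
Levels of the 5 Prl2c probes on each scanner array (left, log2 of the signal over the 75th percentile of its array) and in each column of the value table (right, log2 around the median of the probe). Open symbols mark probes not well above background on the scanner array, and lines only join the values of 1 probe. On the left the array labelled EV-50 replicate 2 is lowest for all 5 probes, and on the right both EV-50 columns lie below both shGR-19 columns.

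The targeted gene and the likeness of the arrays were examined first. Nr3c1, which encodes GR, gave log2 levels of 1.81 and 1.92 under the EV-50 label, replicates 1 and 2, and of 1.46 and -0.034 under the shGR-19 label, so that the array labelled shGR-19 replicate 1 lay 0.35 below its EV-50 counterpart. In the value table limma called all 4 Nr3c1 probes lower in shGR-19, by log2 differences from -1.94 to -1.41 (adjusted p from 0.00215 to 0.00539). Over these 21173 probes, the log2 difference between the arrays labelled replicate 1 had an SD of 0.225, against 0.616 between both arrays labelled EV-50. The difference between the lines on the arrays labelled replicate 1 correlated at 0.0548 with that of the same columns of the value table, and on the arrays labelled replicate 2 at 0.883 (across genes, which are not independent replicates). The scanner files labelled replicate 1 and the table thus do not describe the same difference, and whether each of these files holds the sample of its label was not tested. Every scanner mean, SD and left-out value below is subject to that limit, and both sources are therefore given. There was 1 slide and 1 scan.

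On the scanner arrays proliferin RNA was high on 3 arrays and low on the array labelled EV-50 replicate 2. The Prl2c3 probe A_52_P84814 gave a background-subtracted signal of 5091 and 24.6 under the EV-50 label, replicates 1 and 2, and of 5223 and 1154 under the shGR-19 label. As log2 levels over the 75th percentile of each array, these are 3.27, -4.57, 3.34 and 1.00. The levels of the lines overlapped, since the array labelled EV-50 replicate 1 stood above that labelled shGR-19 replicate 2.

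Its near-identical partner for Prl2c5, A_52_P619248, gave signals of 7298, 39.1, 7343 and 1582 in the same order of arrays, or 3.79, -3.90, 3.83 and 1.45 on the log2 scale. The order of the arrays was that of the Prl2c3 probe. A further Prl2c3 probe, A_51_P312779, which shares little sequence with either, gave 3250, 24.4, 3363 and 864. That is 2.62, -4.58, 2.71 and 0.58 on the log2 scale, again with the array labelled EV-50 replicate 2 lowest. The scanner's own error of these signals was 10% on the 3 arrays with high signals and from 11.4% to 15.8% on the array labelled EV-50 replicate 2.

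Of the remaining probes, A_52_P511450 for Prl2c5 gave 1338, 6.42, 1344 and 309, and its signal on the array labelled EV-50 replicate 2 was not well above background. A_51_P312780 for Prl2c3 was dim, with 40.8, 3.05, 28.3 and 16.0, and was not well above background on that array either. None of the spots was saturated or marked as an outlier. All 5 probes passed the filter that needs a probe to be well above background on both arrays of a line, 3 of them on the arrays of either line and A_52_P511450 and A_51_P312780 through the arrays labelled shGR-19 only.

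Averaged over the arrays of each line, A_52_P84814 was -0.65 ± 5.54 for EV-50 and 2.17 ± 1.66 for shGR-19 (SD, n = 2 arrays), a log2 difference of 2.82. The difference was 2.70 for A_52_P619248, 2.62 for A_51_P312779, 2.82 for A_52_P511450 and 0.96 for A_51_P312780, and for the last 2 it includes the array on which they were not well above background. For each of the 5 probes it was smaller than the SD between the arrays labelled EV-50, which ran from 2.75 to 5.55. Leaving out the array labelled EV-50 replicate 2 turned all of them below 0, from -1.15 to -0.98. In RNA from a whole culture, fewer cells that make proliferin and less proliferin RNA per cell cannot be told apart.

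The value table read otherwise. It holds each probe relative to its median over the samples, so that its columns give differences and no level. A_52_P84814 was -2.92 and -2.90 in the EV-50 columns and 2.92 and 2.90 in the shGR-19 columns, a log2 difference of 5.83 (56.8-fold). A_52_P619248 was -2.66 and -2.81 against 2.70 and 2.66, a difference of 5.42 (42.8-fold). Within each line the columns of these 2 probes differed by at most 0.15, and the lines did not overlap.

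The other 3 probes ran the same way in the table. A_51_P312779 was -2.29 and -2.33 in EV-50 and 2.29 and 2.39 in shGR-19, a log2 difference of 4.65 (25.1-fold). A_52_P511450 was -2.18 and -2.77 against 2.31 and 2.18, with a difference of 4.72. The dim probe A_51_P312780 was -0.65 and -0.81 against 1.07 and 0.65, with a difference of 1.59 (3.01-fold). Of the 24439 probes kept, 644 (2.64%) were more than 2-fold higher in shGR-19 in the table, a share given here with no test, since this contrast chose the genes.

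**Figure D2:**
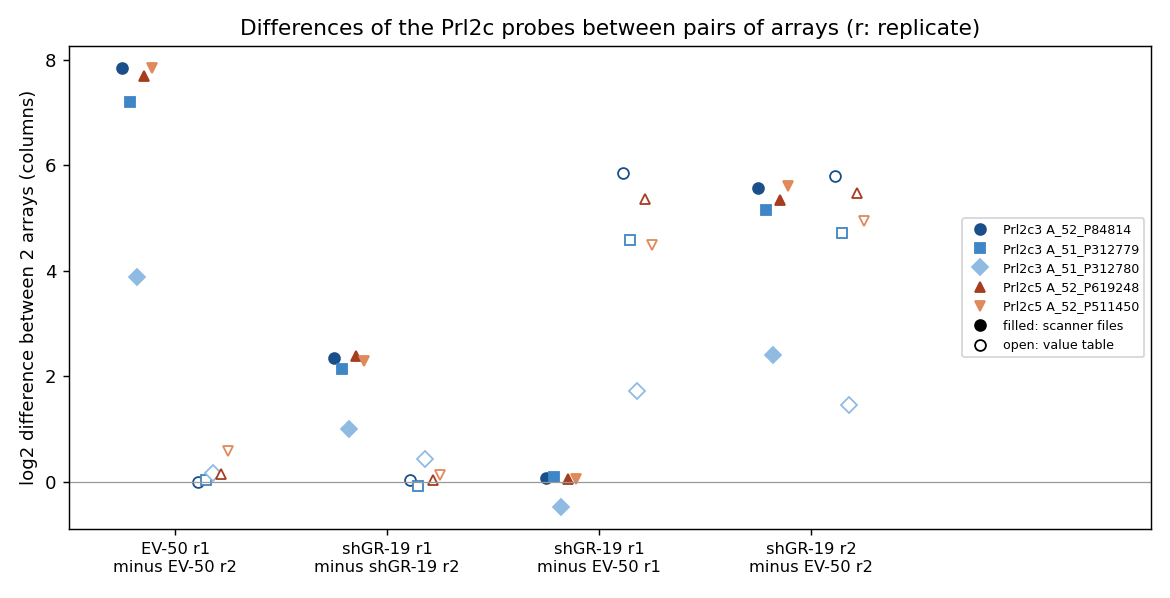
Log2 differences of the 5 Prl2c probes between pairs of scanner arrays (filled) and between the corresponding columns of the value table (open). Scanner and table lie together between the arrays labelled replicate 2 of each line, at 5.35 and 5.48 for A_52_P619248, and part between the arrays labelled replicate 1, at 0.042 and 5.36.

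Taken pair by pair, the scanner arrays held both patterns. Between the arrays labelled replicate 2, A_52_P84814 was 5.57 higher in shGR-19 on the log2 scale (47.4-fold), A_52_P619248 5.35 (40.9-fold) and A_51_P312779 5.16 (35.7-fold). The columns of the value table for these samples differed by 5.81, 5.48 and 4.71. Of 21173 such probes, 406 (1.92%) were more than 2-fold higher in this pair, and these 3 were number 2, 3 and 4 of the increases, behind Zfp704, a zinc finger protein gene, at 6.14.

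Between the arrays labelled replicate 1, the same probes differed by 0.070, 0.042 and 0.083, that is by 1.05-fold, 1.03-fold and 1.06-fold, which is less than the scanner's error of 1 signal. In this pair 218 probes differed by more than 2-fold, of which 21 were higher in shGR-19 (0.0992% of all). The value table gave 5.85, 5.36 and 4.58 for the same samples. In the scanner files the proliferin level of the array labelled EV-50 replicate 1 was thus that of the array labelled shGR-19 replicate 1.

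**Figure D3:**
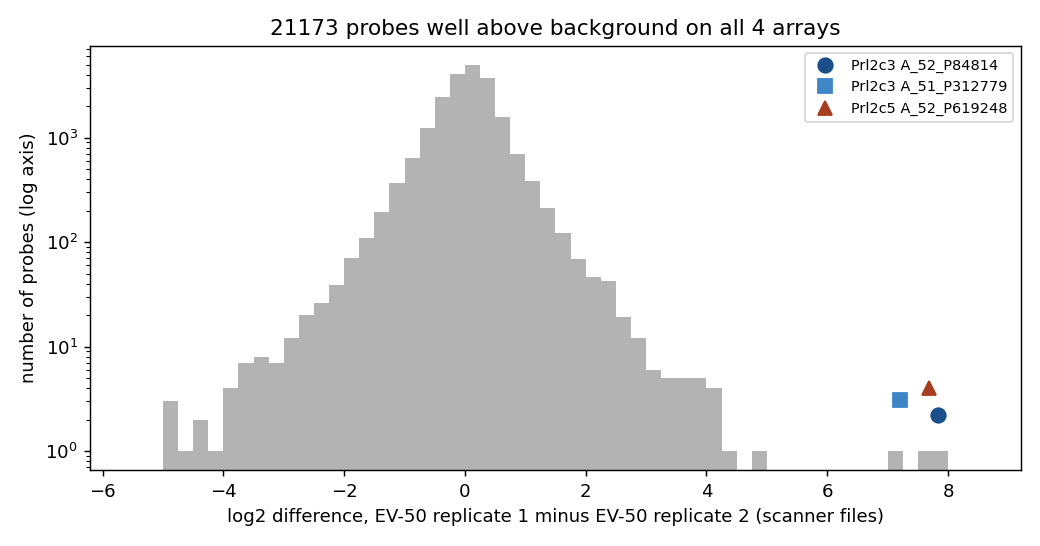
Log2 difference between the scanner arrays labelled EV-50 replicate 1 and replicate 2 for 21173 probes, each well above background on all arrays (grey, number of probes on a log axis). Symbols mark the 3 Prl2c probes among them, at 7.20, 7.69 and 7.84, to the right of every other probe, and their height has no meaning.

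The 2 arrays labelled EV-50 differed more in proliferin than in any other RNA that was well above background on all arrays. A_52_P84814 was 7.84 higher on the array labelled replicate 1 (229-fold), A_52_P619248 7.69 (207-fold) and A_51_P312779 7.20 (147-fold). By size these differences were number 1, 2 and 3 of 21173, with the next increase at 4.88 for Gsta1, a glutathione transferase gene. In this pair 939 probes (4.43%) were more than 2-fold higher on the array labelled replicate 1.

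Between the arrays labelled shGR-19 the proliferin probes differed less. A_52_P84814 was 2.35 higher on the array labelled replicate 1 (5.08-fold), A_52_P619248 2.38 and A_51_P312779 2.13. They were number 142, 135 and 192 of the increases in this pair, in which 1318 probes (6.22%) were more than 2-fold higher. Ccl2, which encodes a chemokine, had the largest increase here among the other probes, at 7.12. In the value table the shGR-19 columns of the 3 proliferin probes differed by 0.021, 0.038 and -0.093.

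The 3 probes that were well above background on all arrays varied together from array to array. The difference between the arrays labelled EV-50 ran from 7.20 to 7.84, that between the arrays labelled shGR-19 from 2.13 to 2.38, and that between the arrays labelled replicate 2 of each line from 5.16 to 5.57. A_52_P511450 for Prl2c5 differed by 2.29 between the arrays labelled shGR-19, and no difference is read here against the array labelled EV-50 replicate 2, where its signal was not well above background and had an error of 40.8%.

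Genes with the nearest profile were sought by Euclidean distance to the mean profile of the 3 proliferin probes over the 4 scanner arrays, each profile centred on its mean, over 21173 probes. The 3 probes themselves lay at 0.106, 0.217 and 0.301. The nearest other gene was Tex101, which encodes a germ cell surface protein, at 3.02. Il1rl1, a receptor of the interleukin 1 family, followed at 3.45, then Dysf, the membrane repair protein dysferlin, at 3.50, Mt2, a metallothionein that binds metal ions, at 3.53, and Galntl2, a sugar transferase of protein glycosylation, at 3.58.

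Tex101 read 0.68 and -3.26 under the EV-50 label and 0.74 and 0.28 under the shGR-19 label, low as the proliferins on the array labelled EV-50 replicate 2 alone. The nearest genes were chosen by their likeness, over these same samples, to probes picked for this contrast. The limma calls on them are therefore a description and no separate support. In the value table limma called Tex101 higher in shGR-19 by a log2 value of 3.71 (standard error 0.077, adjusted p = 0.00181), and Il1rl1 by 3.50 (standard error 0.12, adjusted p = 0.00279). A further Il1rl1 probe was called at 1.66, and another one, at 1.19, was not (adjusted p = 0.144). Galntl2 was called at 2.48 (adjusted p = 0.00271). Mt2 read 5.64 and 1.38 under the EV-50 label and 5.60 and 1.95 under the shGR-19 label, so that it was low on both arrays labelled replicate 2, and its 0.83 in the table fell short of 2-fold. Dysf read 0.46 and -3.37 under the EV-50 label and 0.74 and -2.55 under the shGR-19 label. It too was low on both arrays labelled replicate 2. Its 0.83 in the table was also under 2-fold and was not called (adjusted p = 0.0116).

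The limma test over all kept probes, those of the family included, called 0 of 24439 on the scanner arrays at more than 2-fold and an adjusted p below 0.01 (0% higher and 0% lower), while 209 had an unadjusted p below 0.05. In the value table, the number of probes called higher in shGR-19 was 457 (1.87%) and that called lower was 585 (2.39%). There 11831 of the 24439 probes had an unadjusted p below 0.05. With any 1 column of the table left out, a line keeps 1 column, which is too few to read calls from. The log2 difference then ran from 1.14 to 1.28 for Fos and from 1.42 to 1.53 for Nid1, both named below. The calls on the lists that follow come from the table and rest on 2 columns per line. The median log2 difference over all kept probes was 0.018 on the scanner arrays and 0.0087 in the table.

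**Figure D4:**
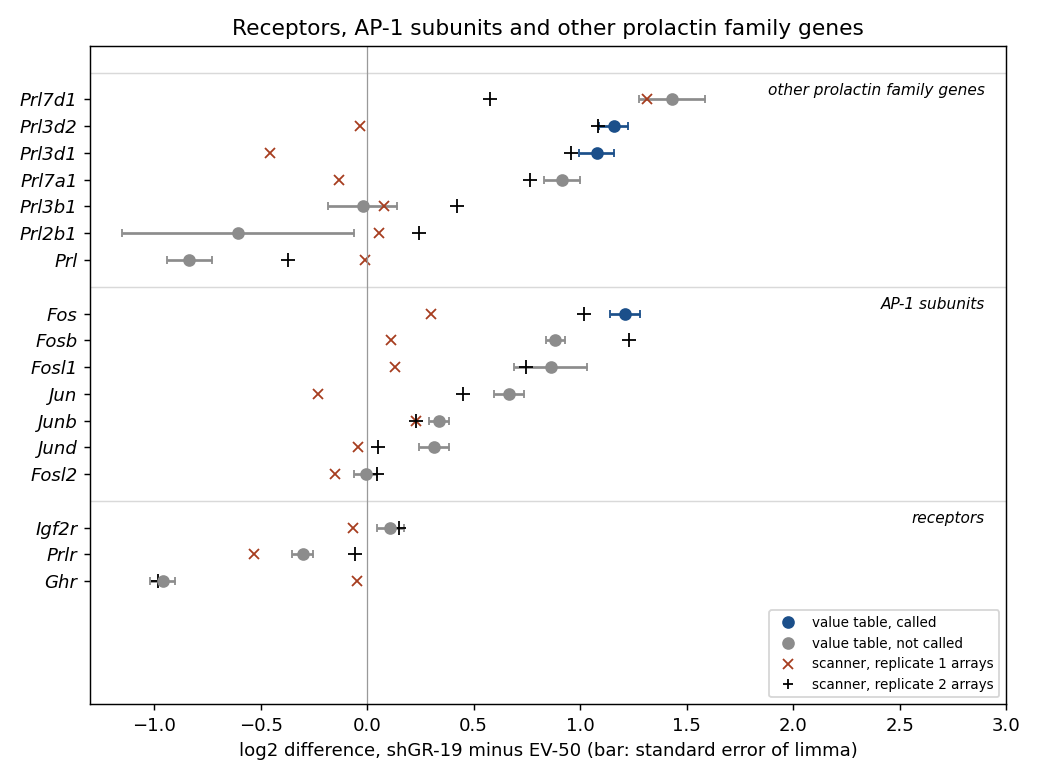
Log2 differences of shGR-19 minus EV-50 for the kept receptors, AP-1 subunits and other prolactin family genes, in the value table (circles with the standard error of limma, blue where called) and between scanner arrays labelled replicate 1 (crosses) and replicate 2 (plus signs). Fos, Prl3d1 and Prl3d2 are the called genes, at 1.21, 1.08 and 1.16.

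Of the 3 receptor genes, none was called in the table, and the median of the list was -0.30. Ghr, the growth hormone receptor, had the largest difference of them, at -0.96 (standard error 0.060, adjusted p = 0.00486), just under the 2-fold limit. Igf2r, the proliferin receptor, read 1.06 and 1.35 under the EV-50 label and 1.00 and 1.49 under the shGR-19 label. The lines overlapped there, and the table gave a log2 difference of 0.11 (standard error 0.062, adjusted p = 0.252). Prlr, the prolactin receptor, read -1.51 and -1.90 against -2.04 and -1.96, with -0.30 in the table (standard error 0.049, adjusted p = 0.0228).

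Among the 7 AP-1 subunits, 1 was called higher in the table and none lower, with a median of 0.66. Fos, an immediate early gene, rose by 1.21 (standard error 0.071, adjusted p = 0.00457). On the scanner arrays it read -3.55 and -3.26 under the EV-50 label and -3.26 and -2.24 under the shGR-19 label, so that the lines did not overlap, though -3.26 was read under both labels. Fosb had 0.88 in the table, under the 2-fold limit (adjusted p = 0.00394).

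Fosl1 had 0.86 (adjusted p = 0.0330) and Jun 0.66 (adjusted p = 0.0103) in the table, and neither was called. Junb gave 0.34 and Jund 0.31. Fosl2 stood at -0.0068, with its second probe at -0.25. Fosl1 and Jun were the AP-1 genes that stood highest on EV-50 replicate 1 relative to EV-50 replicate 2, by 1.1 and 0.75, far under the proliferin probes. Fos was 0.29 and Junb 1.08 lower in that pair.

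The other prolactin genes were mostly dark. Of 21 genes named on the array, 11 were well above background on no array and 7 were kept. Of the 7, 2 were called higher in the table and none lower, with a median of 0.92. Only Prl3b1 and Prl3d1 of them were well above background on all arrays. The others were so on 2 or 3 arrays, Prl3d2 among them, so that the filter can have kept them through 1 line only. The count and the median of this list can follow in part from that filter and are a description. Both called genes encode placental lactogens. Prl3d1 rose by 1.08 (standard error 0.082, adjusted p = 0.00627) and Prl3d2 by 1.16 (standard error 0.068, adjusted p = 0.00460).

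Neither followed the proliferins on the scanner arrays. Prl3d1 read -1.74 and -0.95 under the EV-50 label and -2.20 and 0.0068 under the shGR-19 label, with EV-50 replicate 2 above EV-50 replicate 1. Prl3d2 read -5.10 and -2.79 against -5.13 and -1.71, and it was well above background on 3 arrays. Both were thus high on the arrays labelled replicate 2, where the proliferin probes of EV-50 were at their lowest.

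The promoters of Prl2c3 and Prl2c5 are shown because the probes are named for these genes. Whether both genes changed cannot be told, since each probe lists transcripts of more than 1 family member. The bearing of the promoters on the values was not tested. Each window runs 5′ to 3′ from 250 bases before to 50 bases after the start of the gene in RefSeq (GRCm38.p6), chr13:12800030-12800329 on the minus strand for Prl2c3 and chr13:13182466-13182765 on the plus strand for Prl2c5. Capitals mark the bases without an identical partner in the other window.
Prl2c3 promoter: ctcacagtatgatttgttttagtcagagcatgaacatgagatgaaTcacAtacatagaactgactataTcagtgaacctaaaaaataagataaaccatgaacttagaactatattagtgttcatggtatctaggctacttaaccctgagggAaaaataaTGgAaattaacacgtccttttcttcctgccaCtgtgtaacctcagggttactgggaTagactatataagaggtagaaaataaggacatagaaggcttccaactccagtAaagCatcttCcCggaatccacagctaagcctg
Prl2c5 promoter: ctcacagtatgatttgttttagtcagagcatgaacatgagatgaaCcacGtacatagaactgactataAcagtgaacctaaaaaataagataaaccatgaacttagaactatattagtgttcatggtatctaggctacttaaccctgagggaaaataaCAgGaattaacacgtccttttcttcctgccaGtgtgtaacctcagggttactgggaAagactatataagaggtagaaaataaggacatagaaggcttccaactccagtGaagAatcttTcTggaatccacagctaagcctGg
The windows were identical at 287 of 301 alignment columns (95.3%). Prl2c2 has no window in the table. The windows of Prl7d1, the proliferin-related gene, were as close to that of Prl2c3, at 284 of 301 and 285 of 300 columns. The 21 windows of 19 other prolactin family genes had from 47.2% to 52.7%, with a median of 50.6%.

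Prl7d1, whose promoter window is this close, had a log2 difference of 1.43 in the table (standard error 0.16). It was higher in shGR-19 and missed the call by its adjusted p of 0.0108. On the scanner arrays it read -6.78 and -5.80 under the EV-50 label, where it was not well above background, and -5.46 and -5.22 under the shGR-19 label, where it was. Prl7d1 thus passed the filter through the arrays labelled shGR-19 only. That the lines did not overlap follows in part from this filter and is not read as a result. Its array pattern was not that of the proliferins. EV-50 replicate 1 minus replicate 2 was -0.98, and shGR-19 minus EV-50 on the arrays labelled replicate 1 was 1.32.

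Short motifs were looked for on both strands of these windows. The AP-1 consensus TGACTCA was in neither Prl2c window, and it was in 5.20% of all 32851 promoter windows. With a free middle base, as TGANTCA, which also takes in the consensus, the Prl2c3 window held 1 match, 209 bases before the start, and the Prl2c5 window none, against 7.81% of all windows. The GR half-site AGAACA was in neither and in 6233 of all windows, and the full element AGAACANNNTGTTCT, which contains the half-site, was in neither and in 0.00913% of all. The letters TATAA lay 28 bases before the start in Prl2c3 and 186 and 29 bases before it in Prl2c5, and were in 24.9% of all windows. These matches describe the letters of these windows only. Sites that depart from the letters searched were not looked for, so the composite element cannot be called absent from either window.

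**Figure D5:**
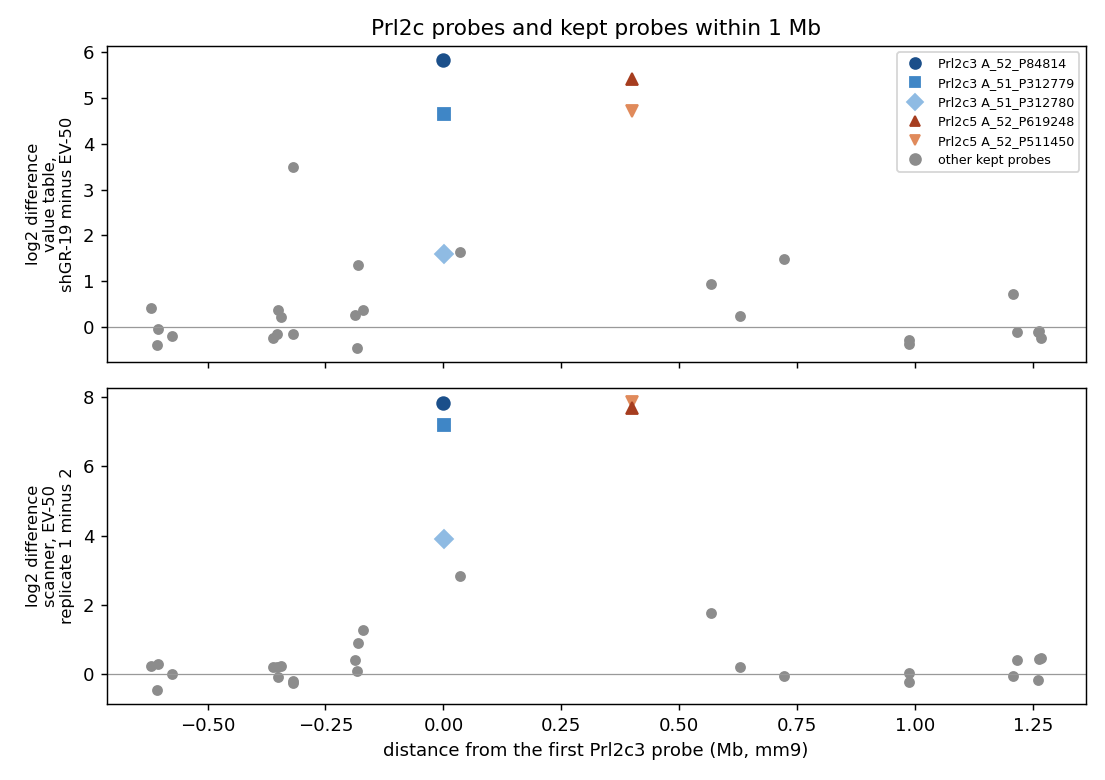
Log2 differences of the Prl2c probes (coloured) and of the 25 other kept probes within 1 Mb (grey) against the distance from the first Prl2c3 probe, for shGR-19 minus EV-50 in the value table (top) and for the scanner arrays labelled EV-50 replicate 1 minus replicate 2 (bottom). In the bottom panel all 5 Prl2c probes lie above every neighbour.

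Around the Prl2c genes, 40 probes with 30 gene names lay within 1 Mb in mm9, of which 25 probes were kept. Among the 18 genes with a kept probe, 1 was called higher in the table and none lower, with a median of 0.085. Nid1, which encodes the basement membrane protein nidogen 1, rose by 1.47 (standard error 0.063, adjusted p = 0.00332), 320 kb from the nearest Prl2c probe. It read -4.38 and -4.33 under the EV-50 label and -4.30 and -3.0 under the shGR-19 label. For A630043P06 a probe at 3.49 in the table was called and a brighter probe, at -0.15, was not.

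Between the arrays labelled EV-50 the neighbours differed less than the proliferin probes. The 21 neighbours that were well above background on all arrays differed in that pair by between -0.46 and 1.75, with a median of 0.20, while the 3 proliferin probes differed by 7.20 or more. The highest of these neighbours, at 1.75, was Gpr137b, which encodes a membrane protein, 167 kb from the nearest Prl2c probe. The transcript AK031369, 29.4 kb from the nearest Prl2c probe and well above background on the 2 arrays labelled shGR-19 only, read -5.06 and -7.88 under the EV-50 label and -5.04 and -5.69 under the shGR-19 label. Its EV-50 arrays differed by 2.82, with that labelled replicate 2 the lower as for the proliferins, but neither was well above background there, and its 1.64 in the table was not called (adjusted p = 0.133).

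Markers of other cells that make proliferins, or that the culture could hold, were read beside these values. Of 9 trophoblast markers on the array, 5 were well above background on no array, namely Cdx2, Ctsq, Eomes, Hand1 and Tpbpa, and 1 of 3 kept genes, Prl3d1, was called. Their summed signal, in units of the 75th percentile of the array, was 0.854 and 0.861 under the EV-50 label and 0.608 and 1.38 under the shGR-19 label. The sum was not low on the array labelled EV-50 replicate 2, but there Prl3d1, itself a prolactin family gene, led it at -0.95. The other kept markers read lower on that array than on EV-50 replicate 1. Ascl2 stood at -2.88 against -2.17 and Prl3b1 at -2.50 against -2.27. The bearing of the trophoblast markers on the proliferin values was not tested.

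Of 10 fibroblast markers 4 were kept, and 3 were called higher and 1 lower in the table, with a median of 1.60. Col1a2, a chain of collagen I, rose by 3.27 (standard error 0.046, adjusted p = 0.00120), Pdgfrb, a receptor of platelet-derived growth factor, by 2.03 and its relative Pdgfra by 1.16, while Postn, a matrix protein, fell by 1.72. On the scanner arrays Col1a2 read 0.68 and 1.56 under the EV-50 label and 0.64 and 4.93 under the shGR-19 label, Pdgfrb -2.20 and 1.78 against -2.0 and 3.94, Pdgfra -5.74 and -3.99 against -5.0 and -2.83, and Postn 1.14 and 5.05 against 0.79 and 3.42. The lines overlapped for all 4 genes, and with 1 array left out the difference of each changed sign. Dcn and Fap were well above background on no array. Pdgfra was so on 3 arrays, and it was lowest on EV-50 replicate 1. The filter can thus have kept Pdgfra through the arrays labelled shGR-19 alone, and its call is a description. The summed signal of the list was 4.23 and 39.6 under the EV-50 label and 3.62 and 60.5 under the shGR-19 label, so that it was high on both arrays labelled replicate 2. Different genes led it there, Postn at 5.05 on EV-50 replicate 2 and Col1a2 at 4.93 on shGR-19 replicate 2. The part of these markers in the proliferin values was not tested.

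Most mammary epithelial markers were read on every array. All 7 kept markers of 8, among them the keratins Krt8 and Krt18, Cdh1 and Epcam, were well above background on all arrays. The other one, the keratin Krt19, was so on 2 arrays and was not kept. It read -5.09 and -2.89 under the EV-50 label and -5.14 and -6.59 under the shGR-19 label. The summed signal of the list lay between 591 and 694, and Krt8 and Krt18 made up most of it. Krt14, a basal keratin, was the 1 gene of the list called in the table, where it fell by 1.13 (standard error 0.049, adjusted p = 0.00332). It read 5.70 and 7.25 under the EV-50 label and 5.72 and 6.06 under the shGR-19 label.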

How the data were processed

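The authors deposited, for each of 4 one-colour Agilent arrays, the scanner output, in which the processed intensity of a spot had been background-subtracted by Feature Extraction 10.5.1.1 with no scaling from array to array. A second deposited file holds log2 values from GeneSpring, centred on each probe; the steps of its scaling are not given in the sources used here. Here each array was scaled to its 75th percentile and put on the log2 scale, spots of a probe were averaged, and control and outlier spots were left out. Of 41174 probes, 24439 were kept that stood well above background on each array of at least 1 line, and 21173 were so on all arrays. The number of arrays limits the precision. Lines were compared with limma 3.58.1 (R 4.3.3) and Benjamini-Hochberg adjustment over all kept probes, at more than 2-fold and an adjusted p below 0.01. A gene outside the family counted by its brightest kept probe. The fit was tested on simulated data.

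Named were all Prl2c probes, Nr3c1, Igf2r, Prlr, the AP-1 subunits, up to 5 called genes of each further list and the 5 nearest profiles; Prl7d1, Zfp704, Gsta1, Ccl2, Gpr137b and single markers were added after their values were seen. Members and lists were chosen with earlier results of these data known. Sequences were aligned with Biopython 1.88. The alternatives were another background correction, normalization, percentile or filter, the value table, an intensity trend, an adjusted p below 0.05, each array left out and the replicate number as a block. A line left with 1 array was taken to vary as much as the other.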

Additional observations from a re-analysis of the deposited data

How the results depend on the processing

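With 1 array left out in turn, the log2 difference of the scanner arrays ran from -1.10 to 6.74 for A_52_P84814, from -0.98 to 6.22 for A_51_P312779, from -0.99 to 2.90 for A_51_P312780, from -1.15 to 6.54 for A_52_P619248 and from -1.10 to 6.75 for A_52_P511450, and each was below 0 only without the array labelled EV-50 replicate 2. With only the arrays labelled replicate 1, chosen after seeing the data, A_51_P312780 stood at -0.49. Background correction by normexp with an offset of 50 lowered the differences of the brighter probes to between 1.28 and 2.07 and that of A_51_P312780 to 0.062, and the other settings kept the direction of all 5 probes. On the scanner arrays limma called 0 probes under every setting run, with from 31 to 1044 at an unadjusted p below 0.05. The replicate number as a block (replicate block) gave 0 probes and 0 list genes called. Arrays with the same number deviated together, with a correlation of 0.65 over 21173 probes, but share only a number, with 2 pairs.

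The value table gave 457 probes called higher and 585 lower, and 15 and 28 with all probes of the array kept. In the lists it gave 1 AP-1 subunit, 1 trophoblast marker, 3 fibroblast markers, 2 other prolactin genes and 1 neighbour higher, and 1 fibroblast and 1 epithelial marker lower. Slide and scan could not be fitted, since there was 1 of each.

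Over the scanner arrays with 1 left out, 19 of 23 other named genes changed sign. The ranges were from -0.21 to 0.29 for Igf2r, from -0.092 to 1.44 for Fosb, from -0.11 to 0.99 for Fosl1, from -0.33 to 0.22 for Fosl2, from -0.27 to 0.49 for Jun, from -0.31 to 0.77 for Junb, from -0.15 to 0.16 for Jund, from -0.85 to 1.35 for Prl3d1, from -1.19 to 2.24 for Prl3d2, from -0.48 to 3.81 for Col1a2, from -1.79 to 4.15 for Pdgfrb, from -2.94 to 0.97 for Postn, from -0.14 to 2.03 for Pdgfra, from -1.35 to 0.19 for Krt14, from -0.17 to 3.77 for Tex101, from -0.45 to 3.33 for Il1rl1, from -1.36 to 2.46 for Dysf, from -1.86 to 2.40 for Mt2 and from -0.48 to 2.75 for Galntl2. The cause was not tested.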
